A study of Mus musculus with 4 samples.

Results

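The 7 genes described here serve the major histocompatibility complex (MHC) class II pathway: Cd74, H2-Aa, H2-Ab1, H2-Eb1, H2-DMa, H2-DMb1 and Ciita. They are 7 of the 20672 genes in the count tables, taken by gene symbol, and they were measured in proximal tubule cells, in macrophages and in each other cell class of 4 single-cell RNA libraries of mouse kidney. The genes were picked for their levels in earlier looks at these libraries, so those levels are given as a description and carry no test. Each group is 1 library made with 10x 3′ chemistry version 2, and every library is labelled as wild-type kidney. E15.5 is ICR kidney at embryonic day 15.5, E17.5 is C57BL/6 kidney at embryonic day 17.5, and P0 is ICR kidney at postnatal day 0. The transplant is C57BL/6N kidney taken at E12.5 and kept 12 days in a host's epididymal fat. The series design calls the host an immunodeficient NOD mouse and the sample label calls it C57BL/6N, so the labels do not settle which immune cells the host had. Strain separates E17.5 (C57BL/6) and the transplant (C57BL/6N) from the ICR libraries E15.5 and P0. Site, host and age cannot be told apart between the transplant and E17.5, and strain differs too between the transplant and the ICR libraries.

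Class II molecules display peptides from the endosome to CD4+ T cells. They are made constitutively by dendritic cells, B cells and activated macrophages, and in many other cells only after interferon gamma. H2-Aa, H2-Ab1 and H2-Eb1 encode chains of the molecule itself, Cd74 encodes the invariant chain that fills its groove and guides it to the endosome, and H2-DMa and H2-DMb1 encode the chaperone that exchanges the Cd74 fragment for peptide. Ciita encodes the transactivator that is recruited to their promoters by RFX, NF-Y and CREB family proteins bound to neighbouring sequence boxes. Renal proximal tubule epithelium is a known site of class II outside the immune system, best known from inflamed and transplanted kidney.

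The boxes bound by RFX and NF-Y are shown because 3 of the members share them in the same order. RefSeq promoter sequences of the GRCm38.p6 build were matched for 4 members, H2-Aa, H2-Eb1, H2-DMb1 and H2-DMa. The windows below run from -110 to -31 relative to the transcription start and are read 5′ to 3′ on the gene's strand. Capitals mark GNAACT, the core of the X box bound by RFX, and TGATTGG, the Y box bound by NF-Y. They lie at chr17:34287854-34287933 on the minus strand for H2-Aa, at chr17:34305757-34305836 on the plus strand for H2-Eb1 and at chr17:34153081-34153160 on the plus strand for H2-DMb1.
H2-Aa: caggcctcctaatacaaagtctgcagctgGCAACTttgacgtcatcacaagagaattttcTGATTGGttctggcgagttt
H2-Eb1: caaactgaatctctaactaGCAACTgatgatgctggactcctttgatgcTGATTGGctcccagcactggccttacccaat
H2-DMb1: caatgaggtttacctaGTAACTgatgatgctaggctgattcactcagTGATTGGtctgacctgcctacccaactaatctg

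In H2-Aa the X core began at -81 and the Y box 31 bases further on. In H2-Eb1 the X core began at -91 with a spacing of 30 bases, and in H2-DMb1 it began at -94 with a spacing of 31 bases. The letters and the range of spacings were chosen after these promoters had been read. Over 32851 RefSeq promoter windows of 300 bases, with both strands searched, GNAACT was present in 42.8% and TGATTGG in 7.82%. The pair on 1 strand in this order, 25 to 35 bases apart from start to start, was present in 0.131%. The 2 windows of H2-DMa, 1 for each listed start, did not hold the pair. A match is a run of letters and no measurement of binding.

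The count tables held 4158 to 10810 barcodes a library and 42430540 to 99068204 unique molecular identifiers (UMIs, each 1 captured RNA molecule). After filters on genes per cell, mitochondrial share and doublets, 21695 cells were used, with library medians of 6276.5 to 22585 UMIs a cell. In the GRCm38 annotation 5 members lie in the MHC on chromosome 17, from H2-DMa (34119541 to 34139101) to H2-Eb1 (34305867 to 34316674), with Cd74 on chromosome 18 (60803848 to 60812652) and Ciita on chromosome 16 (10480059 to 10528418). H2-DMa, H2-Eb1 and Ciita each overlap a gene on the opposite strand, and whether counting used strand is not given in the sources used here. Pairs of libraries shared 19 to 60 barcodes, at most 1.05% of the smaller library. No cell annotation was used, so cells were assigned to 23 classes by scores over marker genes, none of them a member. These are ranges of a score and not types, and 23.9% to 30.5% of each library's cells met no gate. The gate limits were set after the data had been seen. A level is given below as a class's UMIs of a gene per 1000000 UMIs of that class (CPM), with an exact Poisson interval at 95% in brackets, and a share as the percentage of cells with at least 1 UMI. Intervals cover counting error in 1 library only and say nothing of the spread between animals.

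The proximal tubule gate, set on 10 genes of reabsorption and metabolism such as Slc34a1, Lrp2 and Cubn, took 1136 transplant cells, with 128 cells for E15.5, 621 for E17.5 and 692 for P0. Median depth was 11545.5 UMIs in the transplant and 25166, 9570 and 14609 UMIs in those 3 libraries. Cells within 0.05 of the score limit numbered 18 to 77 a library inside it and 31 to 86 outside it. The median score of the next class in these cells was 0.0847 to 0.119, and the median score of each leukocyte class was 0. The macrophage gate, set on C1qa, C1qb, C1qc and 5 further genes, took 60 cells in the transplant, 36 for E15.5, 31 for E17.5 and none for P0.

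Proximal tubule cells of the transplant carried all 7 members, each at a level above those of the 3 kidneys grown in place. Cd74, the invariant chain, and H2-Aa, the A alpha chain, stood furthest above them, and H2-DMa, a chain of the peptide-exchange chaperone, the least. Every member also had UMIs in the proximal tubule cells of each kidney grown in place.

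Cd74 stood at 1126 CPM [1109, 1143] in the transplant, against 7.69 CPM [5.07, 11.2] for E15.5, 11.1 CPM [8.67, 14.0] for E17.5 and 19.7 CPM [17.2, 22.5] for P0. The transplant stood apart from the other libraries, whose intervals all ended at 22.5 CPM or lower. Relative to E17.5 the Cd74 level was 101-fold higher [80.4, 130], and relative to P0 57.2-fold higher [50.1, 65.6]. The share of cells with Cd74 was 69.2% in the transplant, against 14.8% for E15.5, 8.70% for E17.5 and 16.9% for P0. E15.5 cells were the deepest, and with each cell thinned to 3000 UMIs the transplant share was 51.4%, with 173 shallower cells left out. Those of E15.5, E17.5 and P0 were then 2.48%, 3.48% and 3.72%, with 7, 18 and 47 cells left out. At equal depth the 3 kidneys grown in place thus lay close together and the transplant far above them.

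H2-Aa, the alpha chain of the A molecule, had 215 CPM in the transplant, against 1.71 CPM for E15.5, 2.34 for E17.5 and 4.67 for P0. The transplant level was 91.6-fold that of E17.5 [55.4, 164] and was present in 41.9% of cells, against 2.09% to 5.78% in the other libraries. H2-Ab1, the beta chain that pairs with it, had 483 CPM in the transplant, against 7.98 CPM for E15.5, 54.7 for E17.5 and 43.5 for P0. Its transplant level was 8.83-fold that of E17.5 [7.93, 9.86]. H2-Ab1 differed from its partner mainly in the kidneys grown in place, where E17.5 and P0 already stood above E15.5 and 37.2% and 40.5% of cells held a UMI.

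H2-Eb1, the beta chain of the E molecule, had 225 CPM in the transplant, against 4.56 CPM for E15.5, 11.9 for E17.5 and 12.0 for P0, a level 18.9-fold that of E17.5 [15.1, 24.1]. E17.5 and P0 did not differ beyond counting error. H2-DMa, the alpha chain of the peptide-exchange chaperone, had 72.4 CPM in the transplant, against 29.1 CPM for E15.5, 28.0 for E17.5 and 32.9 for P0. Its intervals overlapped among the 3 kidneys grown in place, and its ratio of 2.59 [2.21, 3.05] to E17.5 was the smallest of the 7. H2-DMb1, its beta chain, had 76.8 CPM in the transplant, against 7.69 CPM for E15.5, 14.1 for E17.5 and 18.3 for P0, 5.46-fold the E17.5 level [4.40, 6.85]. H2-DMb1 has a close paralog, H2-DMb2, and how reads were divided between them was not tested. H2-DMb2 itself stood at 87.8 CPM in the transplant, against 61.5 CPM for E15.5, 26.9 for E17.5 and 34.0 for P0. From E15.5 to E17.5 H2-DMb2 went down, to 0.437-fold [0.356, 0.536], while H2-DMb1 went up, to 1.83-fold [1.18, 2.93].

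Ciita, the transactivator, was the scarcest member, with 125 UMIs in the transplant, 11 for E15.5, 10 for E17.5 and 19 for P0. In that order these correspond to 8.55, 3.13, 1.56 and 1.71 CPM. The transplant level was 5.47-fold that of E17.5 [2.88, 11.7], and 8.80% of the transplant's proximal tubule cells held a UMI. The 3 kidneys grown in place had overlapping intervals.

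Against E17.5, 7 of 7 members were 2-fold or more higher in the transplant, with 0.5 counts added to each sum. Of all 11805 genes with at least 20 UMIs over the compared libraries, 13.1% were. The median log2 ratio was 3.14 over the members and 0.16 over all those genes. Against P0, 7 of 7 members were also 2-fold or more higher, and 11.7% of 12057 genes were. Both comparisons share the transplant library, and the members had been chosen on them, so nothing is read from these counts. P0 exceeded E15.5 by 2-fold or more for 5 of 7 members, all but H2-DMa and Ciita, where 7.03% of genes did. E17.5 exceeded E15.5 for 2 of 7, H2-Ab1 and H2-Eb1, where 6.43% of genes did.

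**Figure D1:**
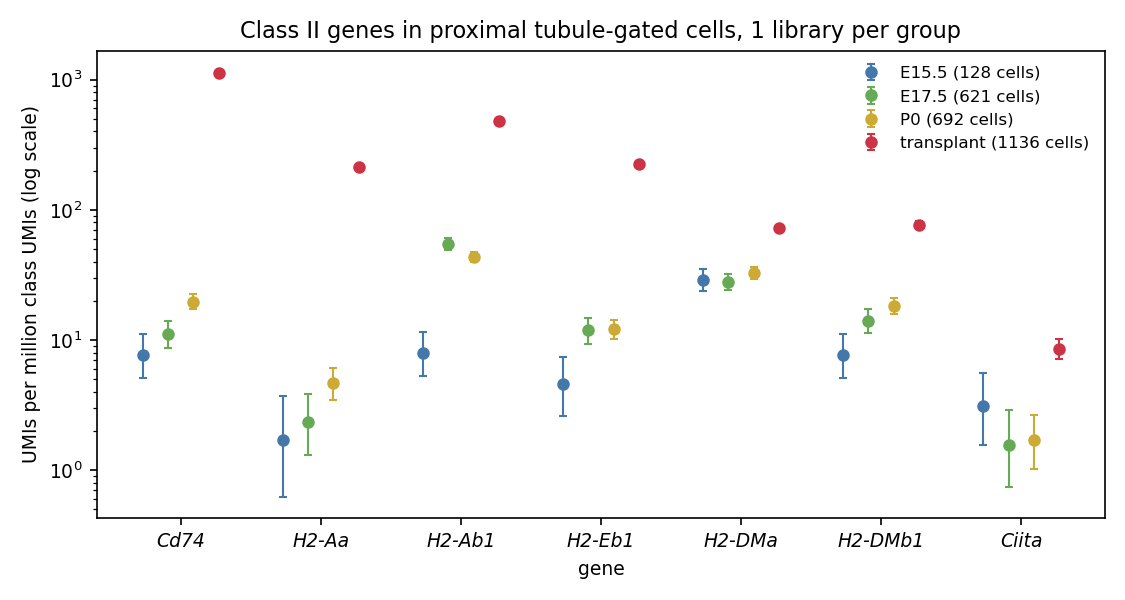
Level of each class II gene in proximal tubule-gated cells, in CPM on a log axis, for the 4 libraries. Points are 1 library each and bars are exact 95% Poisson intervals; all 7 transplant points lie above the others, from 8.55 for Ciita to 1126 for Cd74, with H2-DMa the closest to its neighbours.

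Macrophages, which present antigen to T cells, had far higher levels of Cd74 and of the A chains in the transplant than at E15.5 and E17.5, and P0 had no such cell left to measure. In the transplant they carried 18643 CPM of Cd74, with a UMI in 91.7% of 60 cells, and 5263 CPM of H2-Aa, 5507 of H2-Ab1 and 3568 of H2-Eb1. The peptide-exchange chains stood at 639 CPM for H2-DMa and 508 for H2-DMb1, and Ciita at 23.4 CPM from 10 UMIs. E15.5 macrophages had 22 Cd74 UMIs, 35.9 CPM, and E17.5 macrophages had 12, 79.8 CPM. No UMI of H2-Aa or H2-Ab1 was seen in either, which allows up to 4.90 CPM at E15.5 and 19.9 at E17.5. They did carry the macrophage gene C1qa, at 1247 CPM at E15.5 and 3059 at E17.5, so they met the gate on its own markers. At P0 the doublet filter removed all 12 macrophage-gated barcodes, which together had 26 Cd74 UMIs and 10 H2-Ab1 UMIs.

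At E17.5, H2-Ab1 was therefore higher in proximal tubule, at 54.7 CPM [49.1, 60.8], than the limit of 19.9 CPM that a count of 0 allows in macrophages, at least 2.74-fold. H2-DMa and Cd74 went the other way. H2-DMa stood at 146 CPM [91.7, 221] in E17.5 macrophages against 28.0 CPM [24.0, 32.4] in proximal tubule, and Cd74 at 79.8 CPM [41.2, 139] against 11.1 CPM.

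Dendritic-gated cells, seen only in the transplant and numbering 17, had 49701 CPM of Cd74 and 202 CPM of Ciita. The transplant's 38 B-gated cells had 23364 CPM of Cd74 and 93.9 of Ciita. Its 73 T or NK-gated cells, which do not make class II in the mouse, had 15 Cd74 UMIs, 74.2 CPM in 16.4% of cells, at a median depth of 2496 UMIs. Transplant barcodes with too few genes to be used had 527 CPM of Cd74, from 451 UMIs in 787 barcodes at a median depth of 727. The part of free RNA in the droplets in either value was not tested.

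Cd74 in transplant proximal tubule was 6.04% of the macrophage level. H2-Aa was 4.08%, H2-Eb1 6.31%, H2-Ab1 8.77%, H2-DMa 11.3% and H2-DMb1 15.1% of the level in macrophages. Ciita was 36.5%, from 125 and 10 UMIs. Genes that mark leukocytes stood much lower in the same cells relative to macrophages. C1qa was 0.0179%, Lyz2 0.0199%, Fcer1g 0.0376%, Tyrobp 0.0541% and Ptprc 0.239% of the macrophage level. Csf1r, the highest of those plotted, was 1.46%, and it was at 17.2 CPM in E17.5 proximal tubule and at 10.6 CPM in the transplant's. In UMIs, the 1136 proximal tubule cells held 14 of C1qa and 16467 of Cd74, where the 60 macrophages held 2288 and 7963. Summed over the 23 leukocyte genes, the level was 28.7 CPM in transplant proximal tubule, where 21 genes had a UMI and Ms4a1 and Flt3 had none. The E15.5, E17.5 and P0 libraries had 14.2, 23.6 and 13.3 CPM. Without the 320 cells that held any such UMI, Cd74 was at 1009 CPM and in 64.2% of 816 cells.

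**Figure D2:**
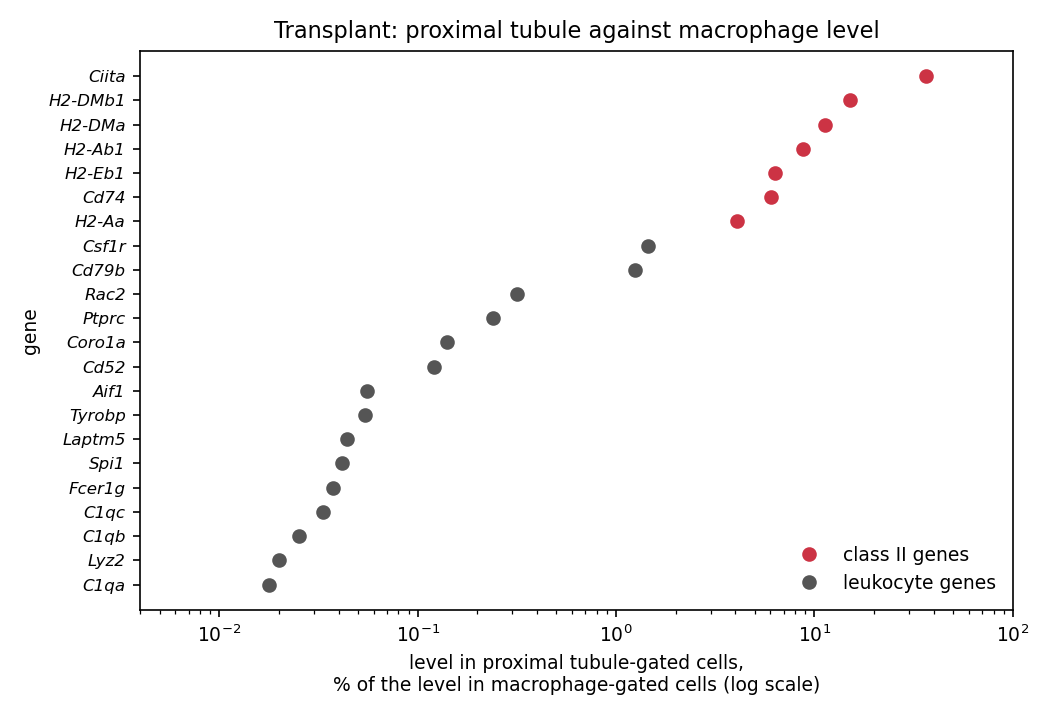
Level in transplant proximal tubule-gated cells as a percentage of the level in transplant macrophage-gated cells, on a log axis, for the class II genes in red and leukocyte genes with at least 20 macrophage UMIs in grey. The class II genes lie between 4.08% and 36.5% and the leukocyte genes at or under 1.46%. Some of the leukocyte genes, such as C1qa and Csf1r, set the macrophage gate.

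Counted as molecules, proximal tubule held more of the transplant's Cd74 than any other class. Of its 41310 Cd74 UMIs, 39.9% were in proximal tubule-gated cells, 19.3% in macrophages, 3.61% in B cells and 22.0% in cells that met no gate. The 17 dendritic-gated cells held 5177. Of its 198 Ciita UMIs, 63.1% were in proximal tubule. Among the ungated cells, the 217 that scored highest for proximal tubule had 3098 Cd74 UMIs, 3097 CPM, at a median depth of only 1190 UMIs.

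The other non-leukocyte classes of the transplant had lower Cd74 levels than proximal tubule. Over 8 classes of at least 50 cells they ran from 27.0 CPM in distal tubule and endothelium to 74.6 in collecting duct, with a median of 33.4 CPM. Collecting duct had 178 Cd74 UMIs in 166 cells, with a UMI in 39.2% of them, at a median depth of 12010.5 UMIs. The shallower T or NK cells had a like level per 1000000 UMIs but fewer Cd74 UMIs a cell, 15 in 73 cells. Thinned to 3000 UMIs, the share of collecting duct cells with Cd74 was 18.2%, and the other 7 non-leukocyte classes were between 4.58% and 12.9%. Relative to proximal tubule, Cd74 in these classes was 2.40% to 6.62%, and the median of the 10 proximal tubule marker genes was 0.946% to 1.84%. Those 10 genes set the proximal tubule gate, so the gate itself keeps them low in the other classes. In loop of Henle, distal tubule and intercalated cells the highest exceeded Cd74, at 18.1%, 17.7% and 7.35% against 3.16%, 2.40% and 4.90%. In the other classes of this range Cd74 was above each of them. In collecting duct Cd74 was at 6.62% and each of those marker genes between 0.545% and 2.51%. T or NK cells had Cd74 at a like 6.59%, with those marker genes between 0% and 4.90% and a median of 2.53%. How much of the Cd74 in these classes was free RNA was not tested. The 32 early nephron-gated cells, too few to enter that range, stood above it, with Cd74 at 137 CPM [103, 179] in 37.5% of cells and H2-Ab1 at 132 CPM [98.2, 173] in 59.4%. Of these cells 16 lay within 0.05 of the score limit, and proximal tubule was their next class.

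Podocytes stood above proximal tubule for 1 member. H2-DMb1 in podocyte-gated cells, the filtering epithelium of the glomerulus, had 126 CPM in the transplant, against 11.1 CPM for E15.5, 48.7 for E17.5 and 20.2 for P0. In the transplant 37.7% of 647 podocytes held it, and 27.7% at 3000 UMIs. Without thinning, proximal tubule had 76.8 CPM in 49.3% of cells, at a median depth of 11545.5 UMIs against 4240 in podocytes. T or NK cells had no H2-DMb1 UMI. In the same podocytes its partner H2-DMa stood at 4.48 CPM and Cd74 at 52.2 CPM. At E15.5, E17.5 and P0, podocytes had at most 1 Cd74 UMI in each library.

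Nephron progenitors, the Six2 and Cited1 cells that give rise to the nephron, held every member in all 3 kidneys grown in place. Cd74 stood at 5.71 CPM for E15.5, 21.5 for E17.5 and 21.2 for P0, in 8.59%, 11.8% and 15.9% of cells. H2-Aa stood at 8.04, 10.1 and 14.3 CPM, above the 1.71, 2.34 and 4.67 CPM of proximal tubule in the same libraries. Progenitors held 81.7% of the H2-Aa UMIs of E15.5 with 18.8% of its cells, 63.0% of those of E17.5 and 47.4% of those of P0. H2-Eb1 stood at 9.85, 26.4 and 17.5 CPM in the 3 libraries. Ciita had 17, 9 and 8 UMIs. Stroma-gated cells of the same libraries, a class not known for class II, had Cd74 at 0.466 CPM for E15.5, 0 for E17.5 and 0.536 for P0, all below the progenitor values. Their median depths were 17744, 5188.5 and 7052 UMIs against 24965, 7793 and 13302.5 in progenitors.

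H2-Ab1 went further than its partners. Early nephron-gated cells, the renal vesicles and first tubule segments, had H2-Ab1 at 3.67 CPM in the E15.5 library, 51.2 in E17.5 and 21.5 in P0, while Cd74 in them was at most 2.01 CPM. Ureteric tip-gated cells, which branch to form the collecting system, had 1 H2-Ab1 UMI at E15.5, 38.1 CPM in 32.7% of cells at E17.5 and 49.3 CPM in 31.9% at P0. In the same tip cells Cd74 had no UMI at E15.5 and E17.5 and 6.53 CPM at P0, and H2-Aa had at most 1 UMI. Collecting duct, which comes from the tip, had 8 H2-Ab1 UMIs at E17.5 and 5 at P0. At 3000 UMIs a cell, the H2-Ab1 share in ureteric tip was 0% for E15.5, 13.6% for E17.5 and 11.2% for P0. Proximal tubule at this depth had 4.13%, 15.1% and 10.5%. In stroma, mural cells and endothelium of the same libraries the thinned H2-Ab1 share was at most 1.47%.

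**Figure D3:**
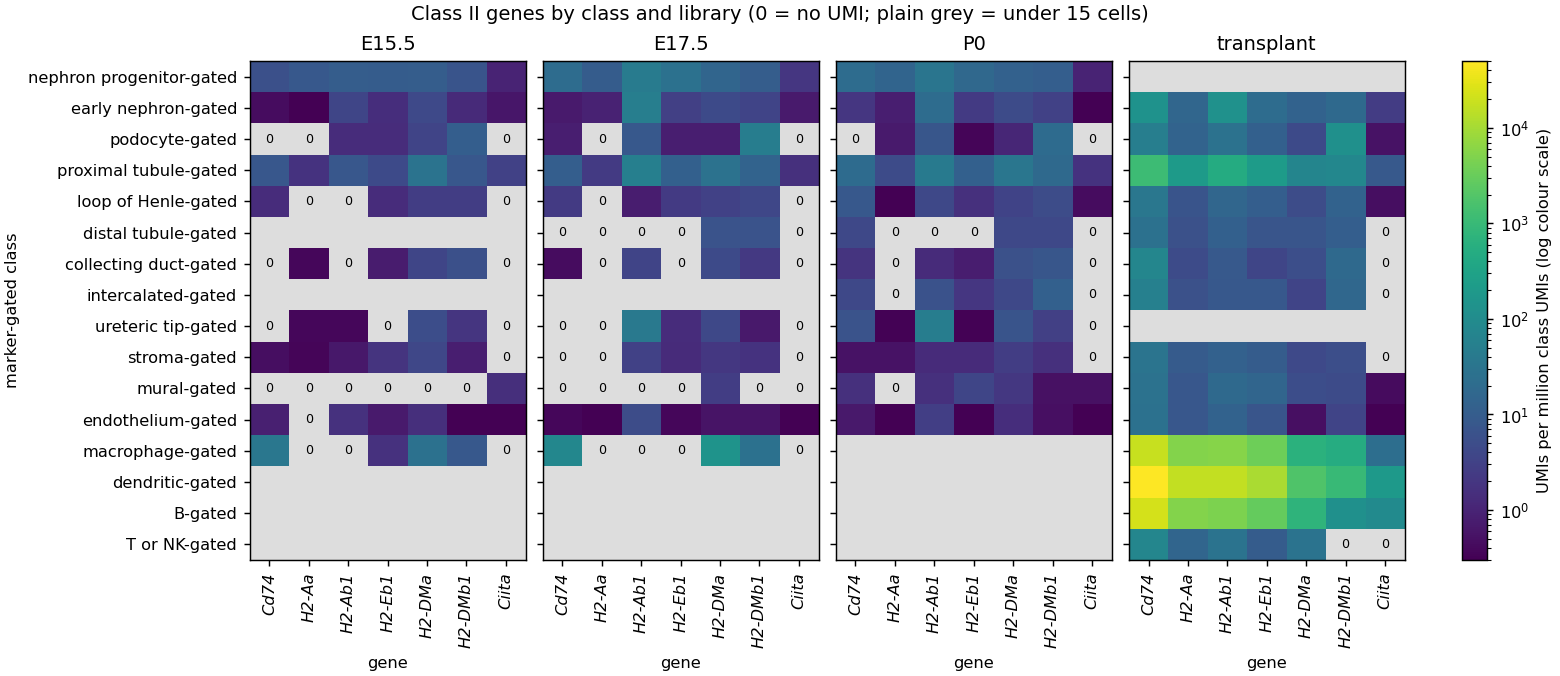
Level of the 7 genes in each marker-gated class, in CPM on a log colour scale, with 1 panel a library. A 0 marks no UMI and plain grey marks a class with under 15 cells; Cd74 reaches 21.5 CPM in nephron progenitors of E17.5, and in the transplant it stands at 1126 in proximal tubule, 18643 in macrophages and 137 in early nephron, with H2-DMb1 at 126 in podocytes.

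Within the transplant's proximal tubule, the class II RNA was spread unevenly over cells. Of 1136 cells, 350 had no Cd74 UMI, 176 had 1, 320 had 2 to 9 and 290 had 10 or more, up to 397. The 114 cells with the most held 69.2% of the Cd74 UMIs. H2-Aa was as uneven, with 73.0% of its UMIs in its own top 114 cells, while H2-DMa had 50.1% and H2-DMb1 43.4%. In the kidneys grown in place the highest Cd74 count of a proximal tubule cell was 3 for E15.5, 5 for E17.5 and 10 for P0.

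Many cells held several members. In the transplant 545 of 1136 cells, 48.0%, held at least 4 members, 47 held all 7 and 99 held none. At E15.5, E17.5 and P0, 3.91%, 2.09% and 8.82% held at least 4 and none held all 7. Over the 1136 cells, log levels of Cd74 had a Pearson correlation of 0.75 with H2-Aa, 0.72 with H2-Ab1, 0.69 with H2-Eb1 and 0.44 with H2-DMa, all from 1 library and from cells that differ in depth. With H2-DMb1 it was only 0.18, although H2-DMb1 had 1124 UMIs in these cells and H2-DMa 1059. With the sparse Ciita, at 125 UMIs, it was 0.12, which in counts this low is no finding.

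Cells grouped by Cd74 differed in the other members by level as well. In cells with 0, 1 to 9 and 10 or more Cd74 UMIs, H2-Aa stood at 14.5, 41.7 and 534 CPM, and H2-Ab1 at 85.5, 190 and 1059. The leukocyte genes summed to 24.0, 29.6 and 30.5 CPM, and 16.6%, 29.8% and 39.3% of the cells held a UMI of any of them. Median depth was 9352.5, 11184 and 16027.5 UMIs. The part of depth and of leukocyte RNA in these differences was not tested. Doublet scores had medians of 0.027, 0.028 and 0.041.

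**Figure D4:**
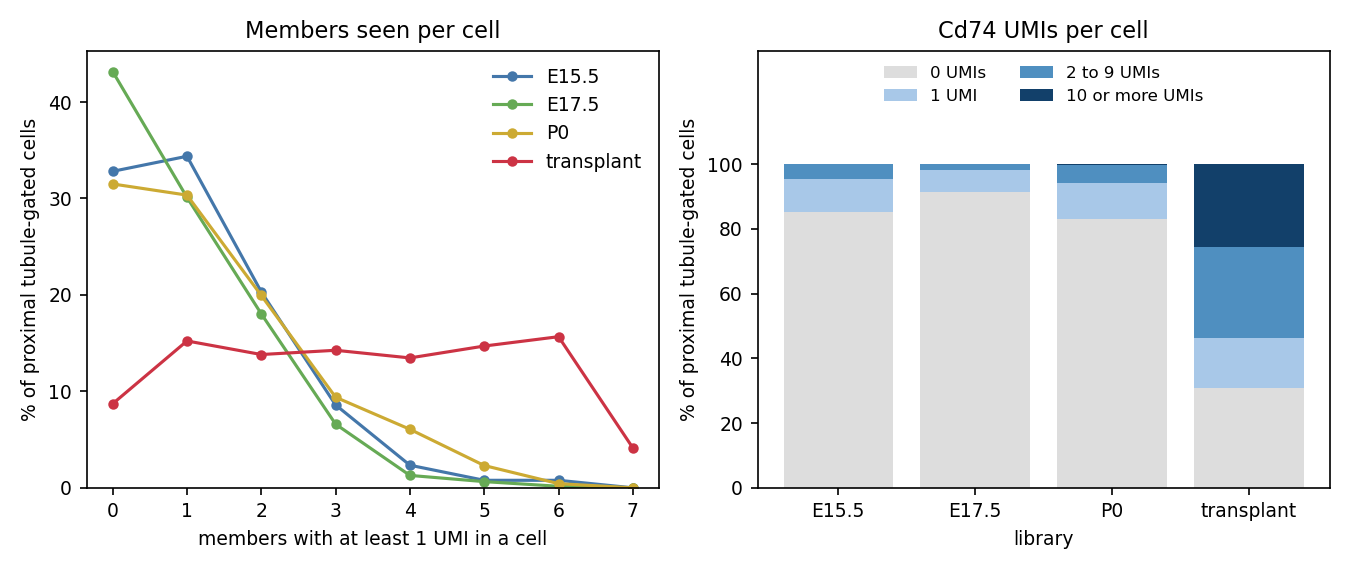
Left, share of proximal tubule-gated cells, in percent, by number of class II members with at least 1 UMI, for the 4 libraries; right, share of the same cells by Cd74 UMIs per cell as stacked bars. The transplant is spread over 0 to 6 members, while most cells of the other libraries hold 0 to 2, and only the transplant has a sizeable block of cells with 10 or more Cd74 UMIs, 25.5%.

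Cells with lower proximal tubule marker scores had more class II RNA. With the transplant's proximal tubule cells put in 4 equal groups by marker score, lowest to highest, Cd74 stood at 2975, 1048, 678 and 407 CPM. H2-Ab1 stood at 1046, 436, 368 and 263 CPM and H2-Aa at 591, 187, 127 and 74.7 CPM. The share of cells with Cd74 was alike in each group, between 68.3% and 69.7%, while the 284 cells of each group held 8225, 3801, 2723 and 1718 Cd74 UMIs. Leukocyte genes summed to 32.2, 29.8, 29.9 and 24.4 CPM in the 4 groups, and median depth was 7688, 10856.5, 12055.5 and 13442.5 UMIs. Their part in the difference was not tested. At P0, by contrast, 4 such groups were at 16.6, 22.5, 16.3 and 22.8 CPM of Cd74.

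**Figure D5:**
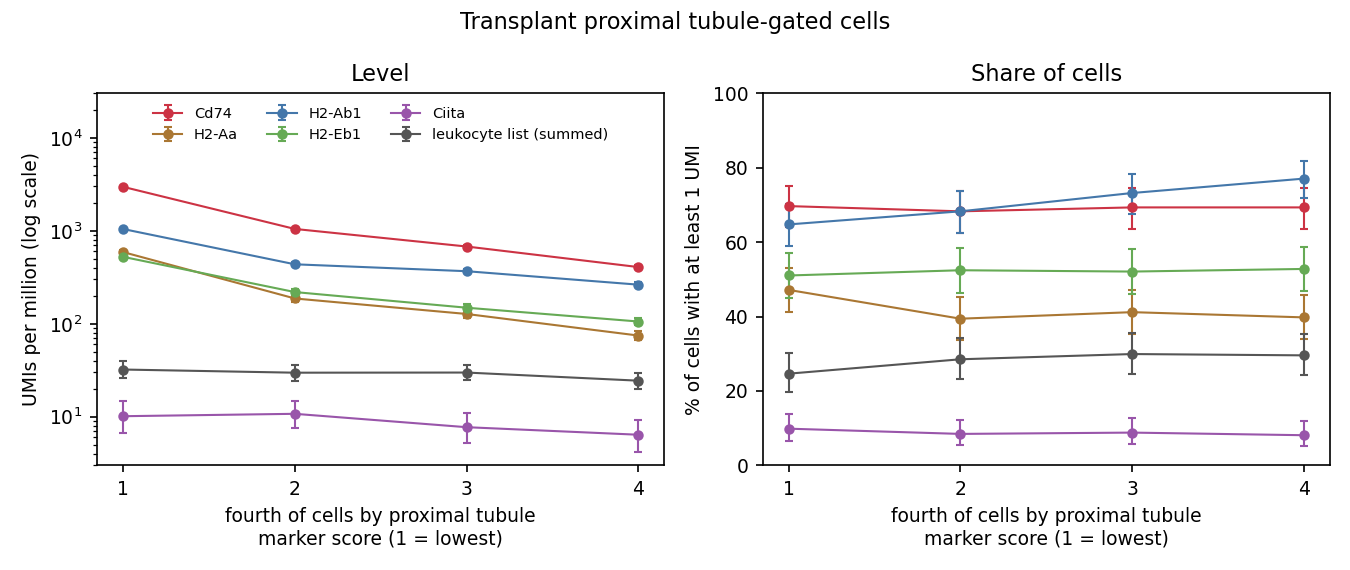
Level in CPM on a log axis (left) and share of cells with at least 1 UMI in percent (right) in 4 equal groups of transplant proximal tubule-gated cells by marker score, with exact 95% intervals. Cd74 goes from 2975 to 407 CPM from the lowest to the highest group while its share stays between 68.3% and 69.7%; the summed leukocyte genes stay between 24.4 and 32.2 CPM.

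Other genes of the pathway were read from lists, each given by its count 2-fold or more apart between transplant and E17.5 proximal tubule. Of all 11805 genes with at least 20 UMIs, 13.1% were 2-fold or more higher in the transplant. The lists were chosen with earlier results known, so nothing is read from their counts. None of the 8 genes for proteins that bind class II promoters differed by 2-fold, and their median log2 ratio was 0.10. The highest were Nfyb, 1.23-fold, and Nfya, 1.18-fold, subunits of NF-Y, and the lowest were Rfxap, 0.774-fold, of the RFX complex and Atf1, 0.861-fold. Of the 2 tested genes among other class II and lysosomal processing genes, H2-DMb2 was 3.26-fold higher and Lgmn, the protease legumain, 1.61-fold. The H2-O chains H2-Oa and H2-Ob, which restrain the exchange chaperone in B cells, had 5 UMIs and 1 UMI in the transplant.

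Of 12 tested genes of interferon gamma signalling and response, 7 were 2-fold or more higher, with a median log2 ratio of 1.70. Ifng itself had no UMI in these cells in either library. The guanylate-binding protein gene Gbp2 was at least 29.0-fold higher, against no UMI at E17.5, and Iigp1, an immunity-related GTPase, 28.9-fold from 66 UMIs against 1 [5.0, 1157]. The chemokine gene Cxcl10 was 19.6-fold higher, with 2425 UMIs against 54. Against P0, Cxcl10 was only 1.96-fold higher, in 25.7% of transplant cells and 30.2% of P0 cells. Irf1 was 1.47-fold and Socs1 0.387-fold the P0 level, while Gbp2 was 151-fold and Iigp1 50.2-fold, each against 1 UMI. The lowest against E17.5 were the kinase genes Jak2, 1.05-fold, and Jak1, 1.26-fold. All 9 tested class I presentation genes were 2-fold or more higher, from Psmb10, 2.44-fold, and H2-K1, 6.09-fold, to Psmb8, 33.2-fold, and Psmb9, 42.4-fold from 97 UMIs against 1 [7.44, 1693].

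Costimulatory genes were scarce. Cd40 had 49 UMIs in the transplant against 1 at E17.5, a ratio of 21.4 [3.67, 863], and Icosl 16 against 4. Cd80 had none and Cd86 1 UMI. All 5 tested tubular injury genes were higher than at E17.5 by 2-fold or more. Clu was 2.11-fold, Spp1 5.40-fold, Vcam1 5.82-fold and Krt20 11.4-fold higher. Havcr1 was at least 4.96-fold higher, from 34 UMIs against 0, so its rank is not known. Relative to P0, Clu was only 1.41-fold higher, while Spp1, Vcam1, Krt20 and Havcr1 were again 2-fold or more higher. The listed injury gene Lcn2 had too few UMIs to be tested and was not higher. It had 1 UMI in the transplant, 2 for E17.5 and 11 for P0. Of 7 tested leukocyte genes, 4 were 2-fold or more higher than at E17.5. Cd52 at 4.81-fold and Lyz2 at 3.50-fold were the highest, from 22 and 56 UMIs in the transplant. Csf1r at 0.616-fold and Fcer1g at 0.875-fold were the lowest.

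Across 37 sums of non-leukocyte cells, 1 for each class and library with at least 50 cells, the Cd74 level was compared with 11778 other genes of at least 500 UMIs. The sums share libraries, and through them depth and strain. Transplant proximal tubule is 1 of them, with Cd74 at 1126 CPM where the other transplant sums reached at most 74.6 CPM. How far each correlation rests on that sum was not tested. The members were picked for their levels in these libraries, so nothing is read from their ranks. Of the members, H2-Aa came first, with a Pearson correlation of 0.91, and H2-Eb1 the second, with 0.87, while H2-Ab1 had 0.68, H2-DMb1 0.66 and H2-DMa 0.57. The 10 genes outside the members with the highest values were Coq8a and Commd4, each 0.82, Ccl5 and Fars2, each 0.80, Kap, 0.77, Bckdha, Ndufv1 and Ubd, each 0.76, Adhfe1, 0.75, and Atp13a1, 0.74. The chemokine gene Ccl5 stood at 31.4 CPM in transplant proximal tubule and 0.156 at E17.5, and Ubd, which encodes a ubiquitin-like modifier, at 74.9 CPM and 0. Coq8a, by contrast, stood at 39.5 and 15.5 CPM.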

How the data were processed

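RNA of single mouse kidney cells was counted in 4 libraries, 1 for each group, so no test was possible and none was run; the results describe these libraries. The authors deposited counts of UMIs, per gene and per cell barcode. Per the submitters' processing notes, reads were processed with Cell Ranger 3.1.0 on GRCm38; the matrices of E17.5 and the transplant name version 3.1.0 and those of P0 and E15.5 version 3.0.2, per the file headers. How reads shared by genes were treated is not given in the sources used here. A joined table of several libraries was not used.

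Cells were kept from 500 genes upward and up to 20% mitochondrial UMIs, and the barcodes with the highest doublet scores were removed, 0.8% for each 1000 cells. A cell's score for a class was the mean over its markers of log counts per 10000, each scaled by its 95th percentile above 0 and capped at 1. A gate needed a score of 0.2, a lead of 0.1 over the next class and 3 markers seen. Counts were then summed over a class. Intervals are exact Poisson for levels, exact binomial (Clopper-Pearson) for shares and exact conditional for ratios. A count of 0 was given a limit of 3 counts over the group. Ratios were tabulated for classes of at least 50 cells. The fold calculation was tested on simulated data. Python 3.11.15, scanpy 1.11.5 and scipy 1.17.1 were used.

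The members and the gene lists were chosen with earlier results of these data known. Named in the text are the 7 members, from each list the 2 highest and 2 lowest ratios between transplant and E17.5 proximal tubule among genes with at least 20 UMIs, and the 10 genes most like Cd74; further genes were named after their values were seen. Other doublet, gene, mitochondrial, gate, leukocyte, depth and cluster settings were tried.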

Additional observations from a re-analysis of the deposited data

How the results depend on the processing

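No paired analysis was possible because each group is 1 library. Over the 7 alternative settings run for it, the 7 members stayed 2-fold or more higher in transplant than in E17.5 proximal tubule, and no value changed its direction. Each setting reused the same libraries and members chosen for these levels, so the count describes the processing and adds no support. The Cd74 level in transplant proximal tubule, 1126 CPM, was 1063 with each cell thinned to 3000 UMIs, 1289 in named clusters, 1099 with no doublet removal, 892 with the stricter gate and 1009 without cells holding a leukocyte UMI. Its ratio to E17.5, 101, was 76.9 thinned and 134 in named clusters, and its ratio to macrophages, 0.0604, was 0.0504 thinned, 0.0487 in named clusters and 0.0478 with the stricter gate. The share of cells with Cd74 moved as well. With at least 2 UMIs required it was 53.7% in the transplant, against 4.69% for E15.5, 1.77% for E17.5 and 5.78% for P0, and thinned it was 51.4% in the transplant and 2.48%, 3.48% and 3.72% in those 3 libraries. It was 19.9% at P0 with the stricter gate and 64.2% in the transplant without cells holding a leukocyte UMI. Single libraries, differing host, site and age, and 0 to 60 macrophages a library limit these values, and Ciita rests on 10 to 125 proximal tubule UMIs.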

Other observations

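Ptprc, the common leukocyte antigen CD45, had UMIs in the ureteric lineage and in some other tubule classes. In collecting duct-gated cells it stood at 74.6 CPM in the transplant, against 25.9 CPM for E15.5, 48.6 for E17.5 and 26.2 for P0, and in ureteric tip-gated cells at 21.4, 32.0 and 26.1 CPM in the 3 kidneys grown in place. In the transplant it stood at 27.0 CPM in distal tubule and 35.2 in intercalated cells. Loop of Henle of 3 libraries had 4.66 to 6.48 CPM. These classes also held it in kidneys grown in place, in sets of 2 to 49 cells. With and without Ptprc, the 23 leukocyte genes summed to 35.2 and 23.0 CPM in the 22 loop of Henle cells of E15.5. In distal tubule these sums were 51.1 and 36.5 CPM for E15.5, 19.5 and 6.50 for E17.5 and 16.1 and 4.02 for P0. In intercalated cells they were 35.5 and 0, 10.4 and 0, and 32.5 and 12.2 CPM in that order. Proximal tubule-gated cells of the 4 libraries had 0.27 to 0.615 CPM of Ptprc. Tyrobp, another gene of leukocytes, was at 0 to 1.68 CPM in collecting duct, and Laptm5 at 0 to 3.33 CPM.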
